A study of Mus musculus with 6 samples.

Results

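The Magel2-Ndn locus is a cluster of imprinted genes on mouse chromosome 7, in the region that corresponds to the human Prader-Willi and Angelman syndrome domain. The genes followed here are Magel2 (ENSMUSG00000056972), Ndn (ENSMUSG00000033585), Mkrn3 (ENSMUSG00000070527), Peg12 (ENSMUSG00000070526) and Ube3a (ENSMUSG00000025326). They were chosen by symbol, each matched to 1 Ensembl gene ID, and make up 5 of the 37991 IDs in the count table. All 5 were abundant enough to be tested, Magel2 only through its Ctrl libraries. RNA-seq read counts came from mouse primordial germ cell-like cells (PGCLCs), an in vitro counterpart of early germ cells derived from embryonic stem cells.

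The 3 Ezh2 KO libraries (genotype Ezh2-/-, CreERT2) came from aggregates given 4-hydroxytamoxifen in ethanol. The 3 Ctrl libraries (genotype Ezh2f/f, CreERT2) came from aggregates that received ethanol alone. Both groups were on the C57BL/6 background, carried the tamoxifen-activated Cre, were induced with BMP2, SCF, LIF and EGF, and were collected on day 4. Whether the line is 1 clone, and whether the replicates were separate inductions, is not given in the sources used here, and the p-values therefore reflect library-to-library spread that may be partly technical. Ezh2 encodes the chief catalytic subunit of PRC2, the polycomb complex that methylates histone H3 to give the repressive mark H3K27me3. The comparison asks how transcript levels in PGCLCs differ after its deletion. Only the Ezh2 KO aggregates received 4-hydroxytamoxifen, so effects of the drug, of Cre activation and of the deletion cannot be told apart.

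Imprinted genes are transcribed mainly from the copy inherited from 1 parent. In this domain Magel2, Ndn, Mkrn3 and Peg12 are expressed from the paternal copy, under the control of an imprinting centre at the Snrpn promoter that carries DNA methylation on the maternal copy. Ube3a is expressed from both copies in most cells and from the maternal copy in neurons, where an antisense transcript, Snhg14, silences the paternal one. Germ cells erase such imprints as they develop. These counts give the sum over both copies, so the level of the maternal and of the paternal copy cannot be told apart.

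Among the genes of the locus, Magel2, Ndn, Mkrn3 and Peg12 each had a single exon in the reference annotation, whereas a Ube3a transcript had up to 13. The windows around their start sites are shown because imprinting in this domain rests on methylation of CG dinucleotides. Each is the RefSeq window of GRCm38.p6 from 250 bases before to 50 bases after the gene's start, read 5′ to 3′ on the gene's strand, with CG in capitals. They lie at chr7:62376729-62377028 (plus strand) for Magel2, chr7:62348027-62348326 (plus strand) for Ndn, chr7:62420104-62420403 (minus strand) for Mkrn3 and chr7:62464461-62464760 (minus strand) for Peg12.
Magel2: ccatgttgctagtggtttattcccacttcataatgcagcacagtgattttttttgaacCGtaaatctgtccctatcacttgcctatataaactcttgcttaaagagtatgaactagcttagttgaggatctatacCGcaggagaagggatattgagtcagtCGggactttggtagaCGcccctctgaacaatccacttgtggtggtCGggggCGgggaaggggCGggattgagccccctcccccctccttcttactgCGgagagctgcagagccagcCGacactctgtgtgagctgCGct
Ndn: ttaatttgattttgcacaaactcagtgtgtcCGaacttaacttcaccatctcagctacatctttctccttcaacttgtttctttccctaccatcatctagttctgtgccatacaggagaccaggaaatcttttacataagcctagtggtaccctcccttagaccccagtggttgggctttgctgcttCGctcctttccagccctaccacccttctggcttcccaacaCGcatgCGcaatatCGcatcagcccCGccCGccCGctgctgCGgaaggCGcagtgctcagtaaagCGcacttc
Mkrn3: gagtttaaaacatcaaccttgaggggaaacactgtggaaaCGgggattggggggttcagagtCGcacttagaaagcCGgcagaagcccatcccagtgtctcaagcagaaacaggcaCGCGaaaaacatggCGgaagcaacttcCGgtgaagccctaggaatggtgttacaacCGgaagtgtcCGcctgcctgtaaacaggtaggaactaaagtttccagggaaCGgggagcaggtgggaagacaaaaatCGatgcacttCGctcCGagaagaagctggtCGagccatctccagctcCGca
Peg12: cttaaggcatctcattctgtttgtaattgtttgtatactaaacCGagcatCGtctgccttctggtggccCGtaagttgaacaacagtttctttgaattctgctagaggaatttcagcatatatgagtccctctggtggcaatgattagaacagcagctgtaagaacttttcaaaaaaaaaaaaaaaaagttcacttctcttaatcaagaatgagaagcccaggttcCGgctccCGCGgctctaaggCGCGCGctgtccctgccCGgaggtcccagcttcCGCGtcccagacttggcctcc
The Magel2 window held 10 CG dinucleotides, that of Ndn 11, that of Peg12 12 and that of Mkrn3 15. The Ube3a window, which is not shown, held 29. CG reads the same on both strands, and the median over 32851 windows of the same length was 7. As many CG dinucleotides as in Magel2 or more were found in 43.5% of those windows, and as many as in Ube3a or more in 12.9%. In Ndn and Peg12 most of the capitals lie toward the start site, at the right-hand end. Methylation was not measured in these files, so the letters describe the windows only.

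Total counts per library ran from 27072150 to 49382146. Ezh2 stood at 40.8, 67.1 and 70.0 CPM (reads scaled to a common library size after TMM normalization) in Ezh2 KO replicates 1 to 3, against 91.8, 78.1 and 95.3 CPM in Ctrl replicates 1 to 3, so transcripts of the targeted gene were lower in each Ezh2 KO library and far from absent. Ezh2 did not pass the test over all genes (log2 fold change -0.58 ± 0.23 SE; edgeR adjusted p = 0.976). Counts are per gene and include any reads from exons outside the deleted part. Transcripts of deleted and of intact copies cannot be told apart, and how complete the deletion was in these cells was not tested. On the first principal component, which held 55.5% of the variance, Ezh2 KO replicate 2 and Ctrl replicate 1 lay at the opposite ends. By edgeR's quasi-likelihood F-test 0 of 16420 genes passed at an adjusted p under 0.05, or 0% of those tested, limma-voom also called 0 and DESeq2 called 5, or 0.02% of the genes it tested. At an unadjusted p under 0.05, edgeR had 205 genes lower in Ezh2 KO, or 1.25%, and 254 genes higher, or 1.55%, together 2.8%. All 9 germ cell markers were abundant enough to be tested, with summed levels of 668 to 807 CPM in Ezh2 KO and 750 to 1020 CPM in Ctrl.

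Of the genes of the locus, 0 of 5 passed the edgeR test. All 5 had a log2 fold change below 0, where 48.7% of all tested genes did. In 3 of the 5 (Magel2, Ndn and Mkrn3) every Ezh2 KO library lay below every Ctrl library, a pattern seen in 4.03% of all tested genes. The median log2 fold change of the 5 was -0.56, against 0.01 over all tested genes. The 5 genes were chosen with earlier results for Magel2 known, so these counts describe the locus and are not a test of it. In a bulk sample, fewer cells that express a gene and less of its RNA per cell cannot be told apart.

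Magel2 encodes a MAGE-family protein that works with the ubiquitin ligase TRIM27 in sorting proteins at endosomes, and its loss is linked to Schaaf-Yang syndrome in humans. Its level was 0.294, 0.309 and 0.321 CPM in Ezh2 KO replicates 1 to 3, and 0.618, 0.958 and 1.03 CPM in Ctrl replicates 1 to 3. The Ezh2 KO libraries lay close together, below the lowest Ctrl library, which was replicate 1. These levels rest on 11, 8 and 13 reads in Ezh2 KO and 30, 27 and 29 reads in Ctrl. Counting error alone gives wide exact Poisson 95% intervals, from 0.133 to 0.609 CPM for Ezh2 KO replicate 2 and from 0.417 to 0.883 CPM for Ctrl replicate 1, and these intervals overlap. The small SD of the Ezh2 KO group, 0.0135 CPM (n = 3), is therefore below what so few reads can resolve.

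Ezh2 KO cells held 36.1% of the Ctrl level of Magel2 in the edgeR fit, with a 95% interval of 19.1% to 68.2%. That is a log2 fold change of -1.47 ± 0.40 SE (unadjusted p = 0.00599, edgeR adjusted p = 0.976), so the difference did not pass over all genes. Of the 5 genes, Magel2 alone had an unadjusted p under 0.05 in this fit. Its Ezh2 KO libraries alone would not have met the abundance filter. Magel2 thus entered the test through Ctrl, the group where it is higher, and its p-value is given as a description. Permuting the group labels over the log2 CPM (exact, two-sided) returned p = 0.1, which is the lowest value possible with 3 libraries in each group. DESeq2 gave a log2 fold change of -1.49 with an adjusted p of 0.796.

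Ndn encodes necdin, another MAGE-family protein, known as a growth suppressor of neurons that binds E2F1 and p53. Ndn stood at 7.06, 5.64 and 6.52 CPM in Ezh2 KO replicates 1 to 3, and at 11.6, 8.37 and 8.38 CPM in Ctrl replicates 1 to 3. The groups did not overlap, and the highest Ezh2 KO library lay 15.7% below the lowest Ctrl library. The mean was 6.41 ± 0.718 CPM in Ezh2 KO and 9.45 ± 1.86 CPM in Ctrl (SD, n = 3 each), with Ctrl replicate 1 above the rest of its group. The log2 fold change of Ndn was -0.56 ± 0.25 SE, with a 95% interval of -1.15 to 0.02 (unadjusted p = 0.0571, edgeR adjusted p = 0.976), and the exact permutation test gave p = 0.1. The log2 fold change of Ndn was -0.39 without Ctrl replicate 1, and -0.30 without that library and Ezh2 KO replicate 2.

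Mkrn3 encodes a makorin zinc finger protein with a RING domain, which restrains the onset of puberty in humans. Its level was 5.21, 2.59 and 6.40 CPM in Ezh2 KO replicates 1 to 3, and 7.44, 7.56 and 6.69 CPM in Ctrl replicates 1 to 3. The Ctrl libraries lay within a narrow range and the Ezh2 KO libraries were spread, with replicate 2 the lowest. Mkrn3 averaged 4.73 ± 1.95 CPM in Ezh2 KO and 7.23 ± 0.473 CPM in Ctrl (SD, n = 3 each), a log2 fold change of -0.61 ± 0.35 SE with a 95% interval of -1.41 to 0.20 (unadjusted p = 0.121, edgeR adjusted p = 0.976). The highest Ezh2 KO library was 4.32% below the lowest Ctrl library, and when levels were scaled by total counts in place of TMM the groups overlapped. Leaving out Ezh2 KO replicate 2 gave Mkrn3 a log2 fold change of -0.30.

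Peg12, also named Frat3, encodes a relative of the FRAT proteins, which bind and inhibit the kinase GSK3. Peg12 stood at 14.8, 19.7 and 26.0 CPM in Ezh2 KO replicates 1 to 3, and at 15.9, 30.1 and 21.6 CPM in Ctrl replicates 1 to 3. The groups overlapped across most of their range. The log2 fold change of Peg12 was -0.16 ± 0.31 SE, and its 95% interval of -0.87 to 0.55 reaches well to both sides of 0 (edgeR adjusted p = 0.978). The direction turned positive without Ctrl replicate 2 (0.10) and without Ezh2 KO replicate 1 (0.02). Peg12 shares sequence with Frat1 and Frat2, and how reads common to such copies were counted is not given in the sources used here.

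Ube3a encodes a HECT-type ubiquitin ligase whose maternal loss causes Angelman syndrome. It stood at 40.3, 48.3 and 66.6 CPM in Ezh2 KO replicates 1 to 3, and at 74.6, 52.9 and 57.5 CPM in Ctrl replicates 1 to 3. The groups overlapped, since Ezh2 KO replicate 3 exceeded Ctrl replicates 2 and 3. The means were 51.7 ± 13.5 CPM in Ezh2 KO and 61.7 ± 11.4 CPM in Ctrl (SD, n = 3 each), with a log2 fold change of -0.25 ± 0.24 SE and a 95% interval of -0.80 to 0.29 (edgeR adjusted p = 0.976). Leaving out 1 library gave Ube3a a log2 fold change of -0.09 without Ctrl replicate 1, -0.10 without Ezh2 KO replicate 1 and -0.48 without Ezh2 KO replicate 3.

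For 4 of the 5 genes the annotated span overlaps that of a noncoding RNA gene. In the reference annotation the long noncoding RNA gene Gm32061, which is not analysed here, overlaps Magel2 and Ndn on the opposite strand and Mkrn3 on the same strand. Any of its reads that fall within exons of these 3 genes cannot be told apart from theirs in these counts, and the levels of Magel2 rest on 8 to 30 reads. Snhg14 runs antisense into Ube3a, and without a stated strand setting its reads cannot be told apart from those of Ube3a in these counts.

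**Figure D1:**
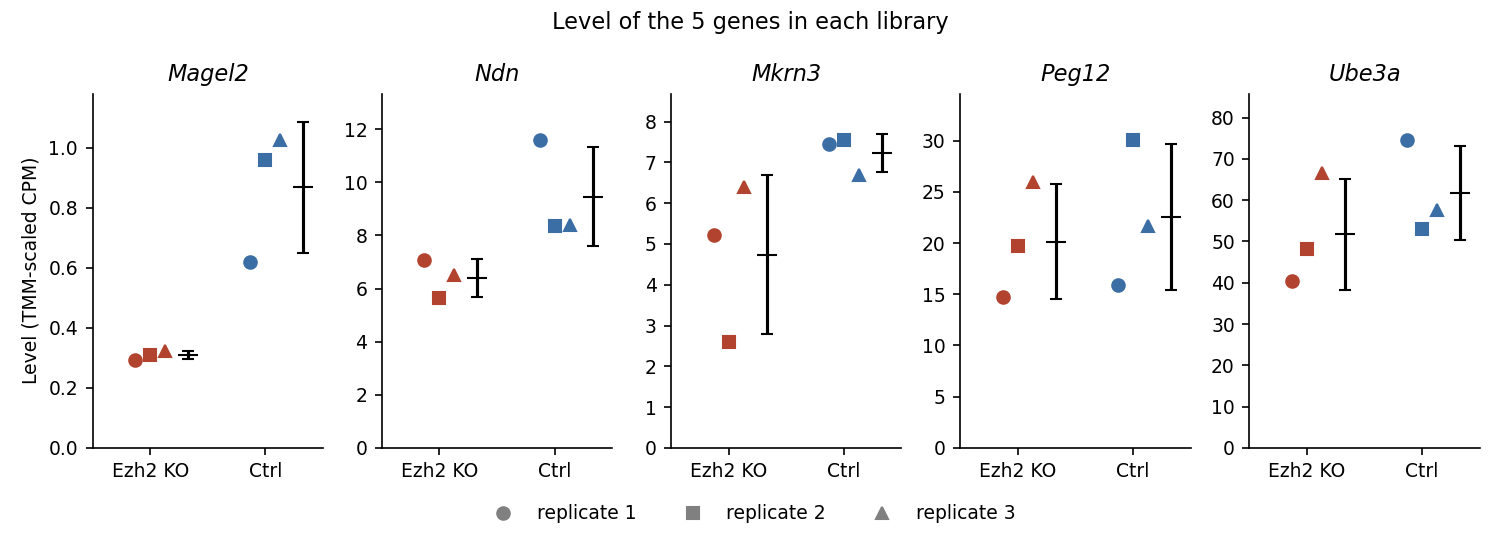
Level of each gene in TMM-scaled CPM (linear axis from 0) in the 3 Ezh2 KO and 3 Ctrl libraries, 1 panel a gene. Points are libraries, shaped by replicate number, and the black bars are the mean ± SD. The Ezh2 KO points of Magel2, Ndn and Mkrn3 lie below all Ctrl points, and those of Peg12 and Ube3a overlap them.

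The sample titles number the replicates in both groups and do not say that equal numbers are pairs. Deviations of same-numbered libraries from their group means correlated across genes at 0.58, 0.37 and 0.19 for numbers 1 to 3. Taking equal numbers as pairs is thus an assumption, under which each Ezh2 KO library was set against the Ctrl library of its number. Magel2 stood at 47.6%, 32.2% and 31.3% of Ctrl in pairs 1 to 3. Ndn stood at 60.8%, 67.3% and 77.8%. Both were below Ctrl in every pair.

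Mkrn3 was below Ctrl in all 3 pairs too, but by very different amounts, at 70.1%, 34.2% and 95.7%. Peg12 was at 92.6%, 65.4% and 120%, and Ube3a at 54.0%, 91.2% and 116%, so pair 3 had the higher level of both in Ezh2 KO. A level below Ctrl in all 3 pairs was seen in 14.8% of all tested genes. With the replicate number as a block in edgeR, 0 of the 5 genes passed (adjusted p = 0.466 for Magel2, 0.515 for Ndn and 0.557 for Mkrn3), and the unadjusted p was 0.00475 for Magel2, 0.0373 for Ndn and 0.0549 for Mkrn3. In that fit 3.12% of all tested genes had an unadjusted p under 0.05 and were lower.

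**Figure D2:**
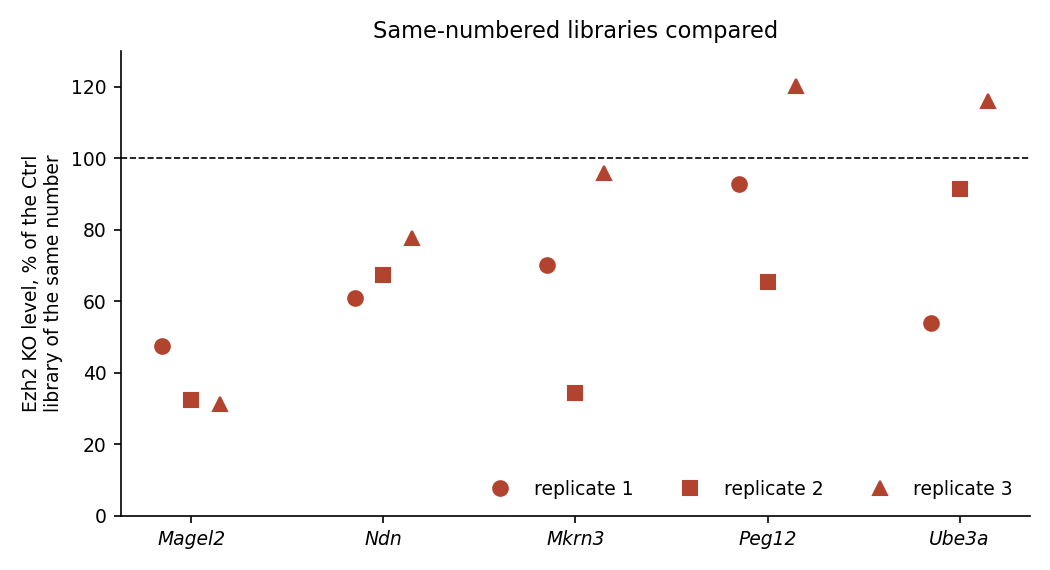
Level in each Ezh2 KO library as a percentage of the same-numbered Ctrl library, for each gene (vertical axis from 0, dashed line at 100%). Points are the 3 pairs. Magel2 lies between 31.3% and 47.6% and Ndn between 60.8% and 77.8%, while Peg12 and Ube3a cross the line in pair 3.

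Levels per length placed Peg12 first and Magel2 last among the paternally expressed genes in both groups. Per kilobase of exon, Peg12 had 7.63 ± 2.13 CPM in Ezh2 KO and 8.54 ± 2.70 CPM in Ctrl (SD, n = 3 each). Mkrn3 followed with 1.86 ± 0.766 CPM per kilobase in Ezh2 KO and 2.84 ± 0.186 in Ctrl, and Ndn with 1.73 ± 0.194 in Ezh2 KO and 2.56 ± 0.505 in Ctrl, and these neighbours in the order differed by less than their spread. Magel2 had 0.0665 ± 0.00292 CPM per kilobase in Ezh2 KO and 0.187 ± 0.0471 in Ctrl. Ube3a had 2.51 ± 0.654 CPM per kilobase in Ezh2 KO and 2.99 ± 0.555 in Ctrl over all its annotated exons, or 5.25 ± 1.37 and 6.26 ± 1.16 over its longest transcript, so its place depends on the length used. The lengths are from an annotation of a later build than the counts.

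Summed over Magel2, Ndn, Mkrn3 and Peg12, the level was 31.6 ± 6.61 CPM in Ezh2 KO (range 27.3 to 39.2) and 40.1 ± 6.05 CPM in Ctrl (range 35.6 to 47.0; SD, n = 3 each). The ranges overlapped, and the ratio of the means was 78.8%. Peg12 supplied 54.0% to 69.8% of that sum in Ezh2 KO and 44.8% to 64.0% in Ctrl, so the sum follows Peg12 more than the other genes. Magel2 supplied 0.819% to 1.09% in Ezh2 KO and 1.74% to 2.72% in Ctrl.

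Across the domain and its flanks, 20 genes were in the table and 16 were tested, and 0 of the 16 passed. Of the 16 tested, 13 had a log2 fold change below 0, where 48.7% of all tested genes did. The 13 include the 5 genes of the locus, chosen with earlier results for Magel2 known, and Gm38393, added after its values were seen. The count therefore describes the domain and is not a test of it. Gm38393, whose annotated span covers Snrpn and Snurf, stood at 255, 311 and 210 CPM in Ezh2 KO replicates 1 to 3, and at 366, 300.2 and 304 CPM in Ctrl replicates 1 to 3. It was singled out after its values were seen, because Snrpn, Snurf, Snhg14 and Ipw matched no ID by symbol. None of those genes is analysed under its own symbol. The annotation version behind the counts is not given and may have named this ID differently. Its count may therefore hold reads of Snrpn and Snurf, which lie on the same strand. The groups of Gm38393 overlapped through Ezh2 KO replicate 2, and its log2 fold change was -0.32 ± 0.18 SE (edgeR adjusted p = 0.976).

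Atp10a, a phospholipid transporter gene on the far side of Ube3a whose imprinting varies, averaged 5.44 ± 1.27 CPM in Ezh2 KO and 5.80 ± 1.605 CPM in Ctrl (SD, n = 3 each). The small nucleolar RNA gene Snord64 had too few reads to test. Among the 12 flanking genes, 9 were tested, with a median log2 fold change of -0.35, 3 of them above 0 and 6 below. Among them Klf13, a Krüppel-like transcription factor gene, averaged 59.99 ± 4.61 CPM in Ezh2 KO and 81.6 ± 32.1 CPM in Ctrl (SD, n = 3 each) and did not pass (edgeR adjusted p = 0.976).

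**Figure D3:**
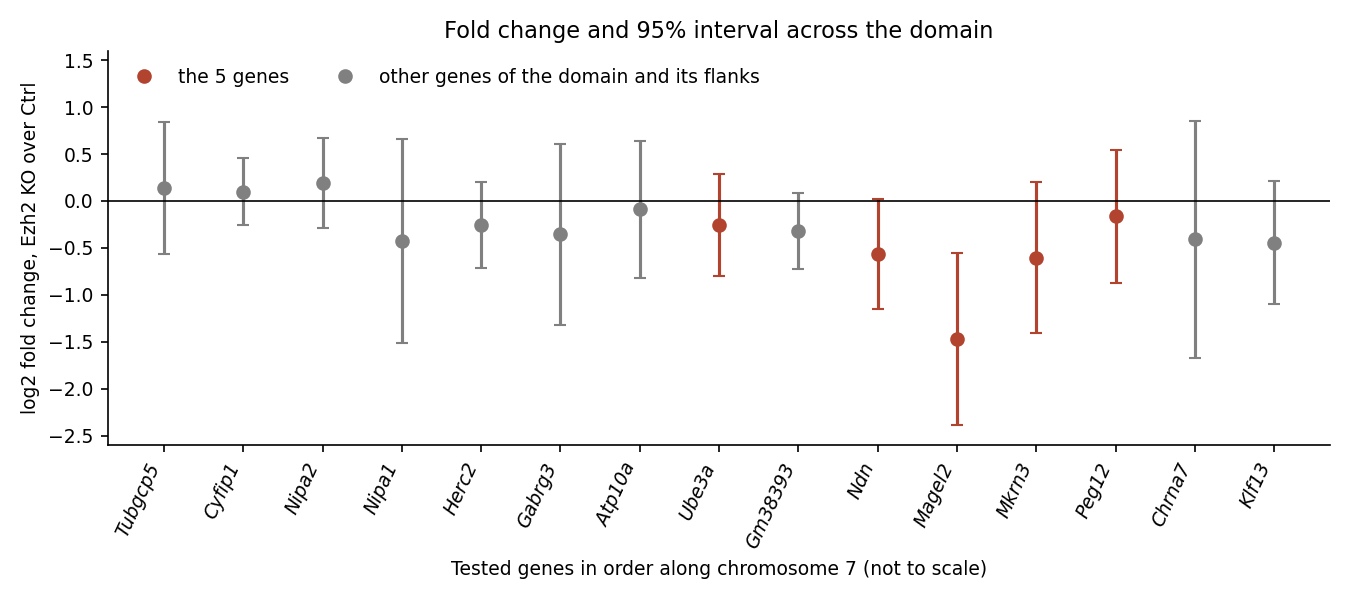
Log2 fold change, Ezh2 KO over Ctrl, with its 95% interval from the edgeR fit (vertical axis), for 15 of the tested genes of the domain and its flanks in their order along chromosome 7, spacing not to scale. Red points are the 5 genes of the locus and grey points the others. Every interval drawn except that of Magel2 (-2.39 to -0.55) includes 0.

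Relatives of these genes elsewhere in the genome were compared for reference. Of 12 other MAGE genes 8 were tested and 0 passed (median log2 fold change -0.27, 3 above 0). Mageb4, an X-linked germline member with close copies that may share its reads, stood at 8.58, 9.54 and 4.15 CPM in Ezh2 KO replicates 1 to 3, against 4.19, 4.40 and 3.89 CPM in Ctrl replicates 1 to 3 (log2 fold change 0.83 ± 0.35 SE; edgeR adjusted p = 0.976). Maged1, a widely expressed member that binds the p75 neurotrophin receptor as necdin does, averaged 145 ± 50.2 CPM in Ezh2 KO and 206 ± 58.7 CPM in Ctrl (SD, n = 3 each). The groups overlapped for both genes.

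Genes for proteins that act with MAGEL2 and necdin were read next. All 11 partners of MAGEL2 in ubiquitin ligation and endosomal sorting were tested and 0 passed, with a median log2 fold change of 0.03 (6 above 0). Trim27, the ligase itself, had 81.1, 44.4 and 86.2 CPM in Ezh2 KO and 138, 72.8 and 75.5 CPM in Ctrl. Washc1, a subunit of the WASH complex that promotes actin assembly on endosomes, had 54.5, 21.6 and 43.2 CPM in Ezh2 KO and 66.6, 47.5 and 45.6 CPM in Ctrl. Of 14 necdin partners 12 were tested and 0 passed in edgeR, with a median of -0.02. Msx1, a homeobox transcription factor gene, stood at 0.401, 0.347 and 0.247 CPM in Ezh2 KO, against 2.58, 6.88 and 0.814 CPM in Ctrl (log2 fold change -3.36 ± 0.76 SE; edgeR adjusted p = 0.976). Msx1 passed in DESeq2 without the replicate block (adjusted p = 0.0127) and with it (adjusted p = 0.000198). Its Ezh2 KO libraries alone would not have met the abundance filter of the edgeR fit. Like Magel2, it entered that fit through Ctrl, the group where it is higher, and its p-values are given as a description.

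Of the 2 makorin paralogs, both tested, 0 passed. The paralog Mkrn1 averaged 295 ± 57.5 CPM in Ezh2 KO and 378 ± 117 CPM in Ctrl, and Mkrn2 38.1 ± 5.62 and 43.0 ± 5.71 CPM (SD, n = 3 each). Of 11 FRAT and GSK3 pathway genes 10 were tested and 0 passed (median log2 fold change -0.21, 2 above 0). Frat2 stood at 1.04, 1.93 and 2.74 CPM in Ezh2 KO and 3.17, 2.63 and 2.79 CPM in Ctrl, and Dvl1, which relays Wnt signals to GSK3, at 4.68, 3.59 and 5.93 CPM and 6.43, 6.67 and 6.05 CPM. Of 15 partners and substrates of UBE3A all were tested and 0 passed (median 0.02). Ube2d2a, an E2 enzyme gene, averaged 154 ± 16.8 CPM in Ezh2 KO and 181 ± 10.3 CPM in Ctrl (SD, n = 3 each). Rnf2, the catalytic subunit gene of PRC1, stood at 177, 175 and 150.2 CPM in Ezh2 KO and 116, 139.8 and 165 CPM in Ctrl.

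The factors that keep imprints, such as DNA methyltransferase 1 and the zinc finger protein ZFP57, were listed together with Tet1 and Tet2. That list gave 0 calls among 18 tested (median log2 fold change -0.10, 4 above 0). Tet1, a dioxygenase that starts removal of DNA methylation, stood at 263, 332 and 411 CPM in Ezh2 KO and 193, 219 and 321 CPM in Ctrl (0.46 ± 0.24 SE; edgeR adjusted p = 0.976). Tet2, its relative, averaged 98.9 ± 9.60 CPM in Ezh2 KO and 127 ± 31.6 CPM in Ctrl. Smchd1, which in mice helps to keep the maternal copies of this domain silent, had a log2 fold change of -0.01 ± 0.21 SE. Of the core PRC2 genes other than Ezh2, Ezh1 stood at -0.33 ± 0.38 SE, Eed at 0.03 ± 0.17 SE and Suz12 at 0.02 ± 0.35 SE on the same log2 fold change scale.

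Imprinted genes of other loci gave 0 calls in edgeR. Of 15 other paternally expressed genes tested, 9 had a log2 fold change below 0 (median -0.22), and 2 of the 15, Dlk1 and Sgce, had Ezh2 KO libraries all below Ctrl, against 4.03% of all tested genes. Sgce, which encodes a sarcoglycan, stood at 10.99, 15.8 and 9.36 CPM in Ezh2 KO and 19.1, 20.9 and 17.3 CPM in Ctrl (-0.67 ± 0.26 SE; edgeR adjusted p = 0.976). Dlk1, a Notch-related ligand, had 1.04, 1.08 and 0.494 CPM in Ezh2 KO and 4.39, 13.5 and 1.27 CPM in Ctrl (log2 fold change -2.88 ± 0.80 SE; edgeR adjusted p = 0.976). Dlk1 did not pass in DESeq2 (adjusted p = 0.0901) and passed in DESeq2 with the replicate block (adjusted p = 0.000279). Of 12 maternally expressed genes tested, 9 were below 0 (median -0.16) and 0 had groups that did not overlap. H19, a growth-restraining long noncoding RNA, averaged 40.7 ± 14.0 CPM in Ezh2 KO and 56.6 ± 4.76 CPM in Ctrl, and Copg2, a coatomer subunit gene, 79.2 ± 19.4 and 92.8 ± 6.78 CPM (SD, n = 3 each).

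Genes with the most similar profile over the 6 libraries were found by the root mean square difference of log2 CPM, each gene centred on its own mean. Closest to Magel2 were C230035I16Rik (difference 0.18), Adgrf3, an adhesion receptor gene (0.24), and Cdx2, which specifies posterior and trophoblast fate (0.28), among 15304 genes compared. Closest to Ndn were Arhgef25 (0.06), the prion protein gene Prnp (0.07) and Dtnb (0.07), among 12235. Closest to Ube3a were Lmln (0.08), Axin1 (0.08) and Ranbp10 (0.08). The neighbours on the chromosome were not among them. The difference between Magel2 and Ndn was 0.54, and 3.20% of the other tested genes were closer to Magel2, while that between Ndn and Mkrn3 was 0.35, and 27.4% were closer to Ndn.

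Markers of other cell types that express genes of this locus were read in the same libraries. Ndn and Magel2 are abundant in neurons, and Ndn in mesenchyme. Mesenchyme markers summed to 3.36 to 7.35 CPM in Ezh2 KO and 6.40 to 10.6 CPM in Ctrl, with 5 of 10 abundant enough to test and 4 of these 5 below 0. Col1a2, a collagen gene, stood at 0.615, 0.270 and 0.445 CPM in Ezh2 KO and 0.804, 0.816 and 1.42 CPM in Ctrl. Its Ezh2 KO libraries all lay below Ctrl, as in 4.03% of all tested genes. Those libraries alone would not have met the abundance filter, so Col1a2 was tested only through Ctrl, where it is higher. Col1a1 stood at 3.10, 1.00 and 2.40 CPM in Ezh2 KO and 5.63, 3.55 and 2.72 CPM in Ctrl, with overlap. The other 5 of the 10 were too low to test. Among these, the mesenchymal transcription factor gene Twist1 had 0 to 0.0772 CPM in Ezh2 KO and 0.0825 to 0.426 CPM in Ctrl. Prrx1, another such gene, had 0 to 0.0494 CPM in Ezh2 KO and 0.106 to 0.497 CPM in Ctrl. Neither overlapped, but both were named after their values were seen and rest on few reads. How often genes too low to test show such a gap was not counted. Groups overlapped for Col3a1 (0 to 0.107 CPM in Ezh2 KO and 0.0708 to 0.461 CPM in Ctrl), for Lum (0 to 0.116 and 0 to 0.0825 CPM) and for Dcn (0 to 0.0494 and 0 to 0.248 CPM). The part of such cells in the levels of Magel2 and Ndn was not tested.

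Neural markers summed to 64.4 to 94.0 CPM in Ezh2 KO and 57.8 to 115 CPM in Ctrl, which overlapped, with 8 of 10 tested and 6 of the 8 below 0. Neurog1, a proneural factor gene, stood at 0.455, 0.0772 and 0.222 CPM in Ezh2 KO and 1.61, 1.56 and 0.884 CPM in Ctrl. Pax6 stood at 0.428, 0.618 and 0.445 CPM in Ezh2 KO and 0.907, 0.639 and 0.672 CPM in Ctrl. For both, all Ezh2 KO libraries lay below Ctrl, as in 4.03% of all tested genes. The Pax6 groups were parted only by 0.618 against 0.639 CPM. Neurog1 passed in DESeq2 with the replicate block (adjusted p = 0.0468) but not in edgeR (adjusted p = 0.976). Extraembryonic endoderm markers summed to 19.3 to 41.8 CPM in Ezh2 KO and 17.4 to 24.1 CPM in Ctrl, and trophoblast markers to 220 to 381 CPM in Ezh2 KO and 144 to 464 CPM in Ctrl. Sox17, an endoderm factor gene, stood at 0.160, 0 and 0.296 CPM in Ezh2 KO and 0.639, 0.426 and 0.460 CPM in Ctrl, and Gata6 at 0.642, 0.463 and 0.716 CPM and 1.22, 0.603 and 1.56 CPM. Of the 5 endoderm markers tested, 3 had a log2 fold change below 0 and 2 above it, Dab2 (0.61) and Lamb1 (0.42), whose groups overlapped. Of the 8 trophoblast markers, all tested, 6 had a log2 fold change above 0 and 2 below it (median 0.18). Cdx2 stood at 0.508, 0.270 and 0.346 CPM in Ezh2 KO and 0.639, 0.922 and 0.991 CPM in Ctrl. It too had every Ezh2 KO library below Ctrl, as 4.03% of all tested genes did. Elf5, another trophoblast factor gene, lay the other way, at 1.42, 1.31 and 0.766 CPM in Ezh2 KO and 0.371, 0.710 and 0.566 CPM in Ctrl, a lack of overlap with higher levels that 4.07% of all tested genes had. None of these passed in edgeR, and their part in the levels of the locus was not tested. For Neurog1, Sox17 and Cdx2 the Ezh2 KO libraries alone would not have met the abundance filter. These genes were tested in edgeR only through Ctrl, where they are higher, so their gaps and p-values are given as a description. Of the 9 germ cell markers, 4 had a log2 fold change above 0 and 5 below it (median -0.11). Among them, Tfap2c averaged 227 ± 73.0 CPM in Ezh2 KO and 300.2 ± 20.1 CPM in Ctrl, and Prdm1 4.30 ± 1.31 and 5.96 ± 1.23 CPM (SD, n = 3 each). Pluripotency markers summed to 1110 to 1875 CPM in Ezh2 KO and 1428 to 1755 CPM in Ctrl, with 0 of 7 called. Sox2 stood at 44.4, 68.1 and 76.3 CPM in Ezh2 KO and 94.2, 71.0 and 65.1 CPM in Ctrl, and Pou5f1 at 410.0, 145 and 279 CPM and 470.2, 311 and 307 CPM.

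Base composition differed widely among the genes of the locus, and over 15629 tested genes the loading on the first principal component, whose sign is arbitrary, had a Spearman's rho of -0.52 with GC content, as a description without a test. The longest transcript of Magel2 held 57.6% G and C, more than 89.4% of tested genes, and Peg12 held 57.0%. Mkrn3 held 49.9%, Ndn 44.5% and Ube3a 36.9%, the last above only 1.25% of tested genes. When each library was given a GC offset, the log2 fold change of Magel2 was -1.31, that of Ndn -0.65, that of Mkrn3 -0.61, that of Ube3a -0.44 and that of Peg12 0.05, so the directions of all but Peg12 were kept. In that fit 0 of the 5 passed (adjusted p = 0.963 for Magel2).

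**Figure D4:**
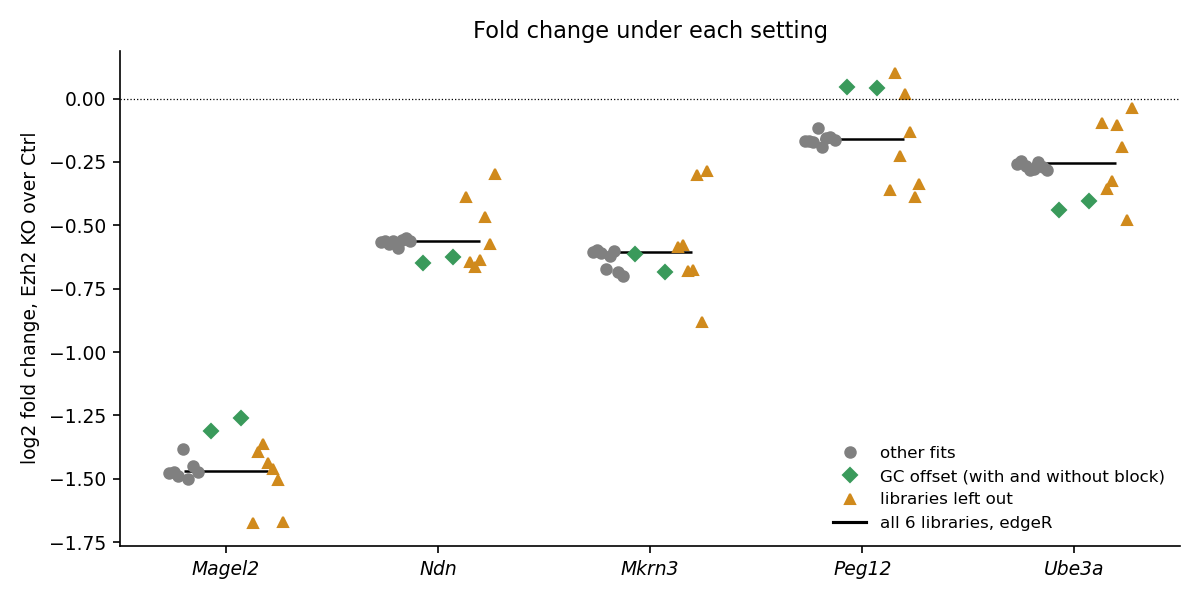
Log2 fold change of each gene, Ezh2 KO over Ctrl (vertical axis), under each setting. Black lines are the edgeR fit on all 6 libraries, grey points other fits, green points fits with a GC offset, and orange points fits with 1 library, or both ends of the first principal component, left out. Magel2 stays between -1.68 and -1.26, and Peg12 lies on both sides of 0.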

How the data were processed

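Read counts of 6 RNA-seq libraries were taken as the authors deposited them, as raw whole numbers for each Ensembl ID. The tools named, per the submitters' processing notes, are CASAVA 1.8.4, Trimmomatic 0.33, TopHat2 2.0.11 and featureCounts, with mm9 and NCBIM37 as builds; strand use and annotation version are not given in those sources. Per the labels' protocols, cells were sorted from trypsin-treated aggregates and libraries made with a low-input kit.

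Symbols, exon lengths, GC content and gene order came from GENCODE M21, and promoter windows from RefSeq (5 of 5 genes matched); both belong to a later build, so no gene coordinates are mixed with the counts. The counts were filtered with filterByExpr (minimum count 10), which left 16420 genes, and tested with edgeR 4.0.16 under R 4.3.3 (TMM, robust quasi-likelihood F-test, group as the only term, two-sided, Benjamini-Hochberg over all tested genes, threshold 0.05). The fit was run on simulated data with less spread between replicates than these libraries have. Changes were placed only in genes more abundant than Magel2, so that run does not bear on a gene at its level. Levels are CPM after TMM, and intervals from counts cover counting error only. DESeq2 1.42.0, limma 3.58.1 (voom) and other filters, scalings, covariates and left-out libraries were alternatives.

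Replicate numbers occur in both groups, and equal numbers were treated as pairs in the block fit. Deviations of same-numbered libraries from their group means correlated across genes at 0.58, 0.37 and 0.19. Correlations between libraries of different numbers were not set beside these, so pairing is not established. The members and gene lists were chosen with earlier results of these data known. Named from each list were the called genes or, with none called, the 2 of smallest unadjusted p; PRC2 genes and the other domain genes were named in full. Similar profiles were sought only where mean log2 CPM reached 1 (-1 for Magel2). Gm38393, Smchd1, Twist1, Prrx1, Col3a1, Lum, Dcn, Dab2 and Lamb1 were named outside this rule, after their values were seen. Some genes of the lists are not reported here.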

Additional observations from a re-analysis of the deposited data

How the results depend on the processing

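In every alternative run, 0 of the 5 genes passed the threshold, and Magel2, Ndn, Mkrn3 and Ube3a kept a negative log2 fold change. Magel2 ranged from -1.68 to -1.26 (adjusted p 0.387 to 1.00) with an unadjusted p under 0.05 in all 16 alternatives; the stricter filter removed it, so it has no value there. Ndn ranged from -0.67 to -0.30, with an unadjusted p under 0.05 in 5 of 17 alternatives. Mkrn3 ranged from -0.88 to -0.29, with such a p in 2 of 17, and Ube3a from -0.48 to -0.04, with such a p in 0 of 17. Peg12 turned positive with a GC offset (0.045), with that offset plus the replicate block (0.042), without Ctrl replicate 2 (0.10) and without Ezh2 KO replicate 1 (0.02), with -0.39 to 0.10 when 1 library was left out; the cause was not tested. The count of genes called over the whole table was 0 in edgeR, 5 in DESeq2 and 50 in DESeq2 with the replicate block, which was added after seeing the data, and none of the calls was a gene of the locus. In edgeR the replicate block gave 0 calls and changed no call for these genes (log2 fold change of Magel2 -1.45 ± 0.40 SE). The log2 ratio of the summed level of the 4 paternally expressed genes, -0.34, moved by less than the spread between replicates in all 9 alternatives (-0.53 to -0.22). With 8 to 30 reads per library, depth limits what can be said of Magel2, and the median half-width of the 95% interval over the 5 genes, 0.71 on the log2 scale, limits the rest.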
